A study of Mus musculus with 8 samples.

Results

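The glucocorticoid system of neonatal cardiomyocytes (NCMs) was followed through 10 genes of the 27179 in the table of counts. They are the receptors Nr3c1 and Nr3c2, the enzymes Hsd11b1 and Hsd11b2, and the response genes Fkbp5, Zbtb16, Tsc22d3, Per1, Sgk1 and Klf9. The genes were found by symbol through their Entrez identifiers. They were chosen from results in which the levels in diesel exhaust (DE) against filtered air (FA) libraries were already known, so the DE against FA values of these 10 genes are given as a description of the libraries and are not independent evidence of a response. Of the 10 genes, 9 passed the filter on low counts, each with all 4 FA and all 4 DE libraries above the level of the filter (0.378 CPM, the counts of a gene scaled to a common library size). Hsd11b2 did not pass, with no library above that level.

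Dams of C57Bl/6J mice were mated in filtered air and then kept in FA or in DE from embryonic day 0.5 until late gestation. Each of the 8 libraries held poly-A RNA from the NCMs of 1 male heart taken on postnatal day 0, with 4 libraries from FA offspring (replicates 2, 3, 4 and 6) and 4 from DE offspring (replicates 1, 3, 5 and 7). Hearts were trimmed, digested with Liberase, and the cells were left on a plate in serum with Ara-C so that fibroblasts could attach, so the NCMs are an enriched and not a pure population. The sources used here do not state whether hearts of a group came from 1 litter, and p-values measure the spread between these libraries. The names of the count columns hold a number between the exposure letters and the replicate, here called the prefix. It is 11 for all 4 FA libraries and for DE replicates 1 and 7, but 12 for DE replicates 3 and 5. What this prefix stands for is not stated, and as all prefix 12 libraries are DE libraries, it is partly bound up with the exposure.

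Totals lay between 17943024 and 39839737 counts per library, and 14966 genes were tested. The 7 cardiomyocyte markers summed to between 52310 and 58100 CPM in FA and between 40670 and 47360 CPM in DE, so the labelled cell type was plain in every library. All 7 had lower means in DE, but unevenly. Myh6, the highest of them, had a mean of 23300 CPM in FA and 14620 CPM in DE. Tnnt2 had 8234 and 7895 CPM and Myl3 3388 and 3228 CPM in the same order. The 8 fibroblast markers summed to 2008 to 3461 CPM in FA, 4534 to 6177 CPM in the prefix 11 DE libraries and 3655 to 4698 CPM in the prefix 12 DE libraries. In bulk RNA, fewer cells of a type and less RNA per cell cannot be told apart.

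Glucocorticoids are steroid hormones of the adrenal cortex that rise before birth and help the heart, lung and liver to mature. Corticosterone, the main form in mice, binds the glucocorticoid receptor (Nr3c1) or the mineralocorticoid receptor (Nr3c2) in the cytoplasm, and the receptor then moves to the nucleus and binds DNA at palindromic elements near its target genes. Within a cell, Hsd11b1 regenerates the active hormone from its inert keto form and Hsd11b2 inactivates it, and several targets, among them the receptor co-chaperone Fkbp5, feed back on the receptor.

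The promoters of the response genes were searched for the letters of the receptor's element. RefSeq windows on GRCm38.p6, from 250 bases before to 50 bases after each start, were held for 7 of the 10 genes, with 15 windows in all. Nr3c1, Hsd11b2 and Zbtb16 had none. The palindromic element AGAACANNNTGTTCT was searched on both strands and is in 3 of 32851 windows (0.00913%), of which 1 belongs to Sgk1. The looser form GNACANNNTGTNC, which includes it, is in 0.475% of windows, and among the 15 windows in the same Sgk1 window alone. The E-box CACGTG, the element of the clock proteins, is in 7.15% of windows, and among the 15 windows in 1 each of Fkbp5, Per1 and Sgk1. The single receptor hexamer AGAACA, which is also a part of the palindrome, is in 19% of windows, and in windows of Sgk1 and Tsc22d3. The cAMP element TGACGTCA is in 1.79% of windows and in 0 of the 15. These are matches of letters in 300 bases and were not tested as binding sites. A window is printed for Fkbp5 and Per1, the response genes with windows that were higher in DE, and for Sgk1, which holds the full palindrome. Fam107a, which is outside the 10 genes and had the highest fold change of a wider list described further on, is shown for its looser element. It was picked by that fold change, and matches in the other genes of that list were not looked up, so nothing is read from its match. Capitals mark the E-box in Fkbp5 and Per1, the palindrome in Sgk1 and the looser element in Fam107a, and each window is written 5′ to 3′ on the strand of the gene.
Fkbp5, chr17:28486100-28486399, minus strand: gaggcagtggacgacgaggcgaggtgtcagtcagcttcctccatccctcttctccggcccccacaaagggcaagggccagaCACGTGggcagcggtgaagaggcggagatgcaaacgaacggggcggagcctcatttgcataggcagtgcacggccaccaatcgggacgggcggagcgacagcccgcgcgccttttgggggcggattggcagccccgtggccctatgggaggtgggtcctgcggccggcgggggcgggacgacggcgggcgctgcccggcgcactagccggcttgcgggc
Per1, chr11:69098699-69098998, plus strand: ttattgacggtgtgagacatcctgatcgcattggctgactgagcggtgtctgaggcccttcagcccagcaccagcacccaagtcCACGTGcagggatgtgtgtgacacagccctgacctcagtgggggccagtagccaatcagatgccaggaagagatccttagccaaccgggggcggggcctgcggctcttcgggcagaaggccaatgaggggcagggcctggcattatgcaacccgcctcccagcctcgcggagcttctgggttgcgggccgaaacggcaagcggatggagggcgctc
Sgk1, chr10:21993640-21993939, plus strand: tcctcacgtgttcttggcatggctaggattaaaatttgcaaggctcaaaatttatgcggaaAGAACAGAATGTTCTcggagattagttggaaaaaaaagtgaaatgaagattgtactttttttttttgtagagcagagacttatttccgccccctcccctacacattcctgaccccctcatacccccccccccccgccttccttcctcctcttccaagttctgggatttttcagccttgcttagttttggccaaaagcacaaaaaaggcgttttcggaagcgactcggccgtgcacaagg
Fam107a, chr14:8309730-8310029, minus strand: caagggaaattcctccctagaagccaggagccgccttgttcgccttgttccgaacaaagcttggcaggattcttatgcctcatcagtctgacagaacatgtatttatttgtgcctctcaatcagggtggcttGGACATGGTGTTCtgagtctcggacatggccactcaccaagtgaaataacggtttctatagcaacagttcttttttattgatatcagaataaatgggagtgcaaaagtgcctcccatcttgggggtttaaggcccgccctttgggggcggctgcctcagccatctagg
The E-box lies 169 to 164 bases before the start in Fkbp5 and 166 to 161 bases before it in Per1. In Sgk1 the palindrome lies 189 to 175 bases before the start of this 1 of its 6 windows, and an E-box, left in lower case, lies 246 to 241 bases before it. In Fam107a the looser element lies 118 to 106 bases before the start of the window shown, 1 of its 3 windows.

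How much of each RNA the cells held was read from the FA libraries alone, per kilobase of the union of a gene's exons. Sgk1, a kinase induced by both receptors, was highest at 46.6 ± 5.19 CPM per kb (SD, n = 4). Tsc22d3 (the anti-inflammatory protein GILZ) followed at 21.0 ± 2.23, Nr3c1 at 18.5 ± 3.17, the transcription factor Klf9 at 17.7 ± 4.75 and the clock gene Per1 at 16.6 ± 3.41 CPM per kb. The ranges of neighbours in this group of 4 genes overlapped, and their order was not set beyond the spread between libraries. Then, with no overlap from Per1, came the zinc finger factor Zbtb16 at 2.86 ± 0.941, Fkbp5 at 2.30 ± 0.328 and Nr3c2 at 1.72 ± 0.471 CPM per kb, whose neighbouring ranges also overlapped. The enzymes were lowest, with Hsd11b1 at 0.125 ± 0.0324 and Hsd11b2 at 0.0799 ± 0.0760 CPM per kb. Between the receptors, the lowest level of Nr3c1 in any FA library (15.4 CPM per kb) lay above the highest of Nr3c2 (2.20 CPM per kb). With the longest transcript as the length, Fkbp5 moved to 5.64 CPM per kb, above Zbtb16 at 2.95, and Per1 moved above Klf9, while the order was otherwise kept.

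**Figure D1:**
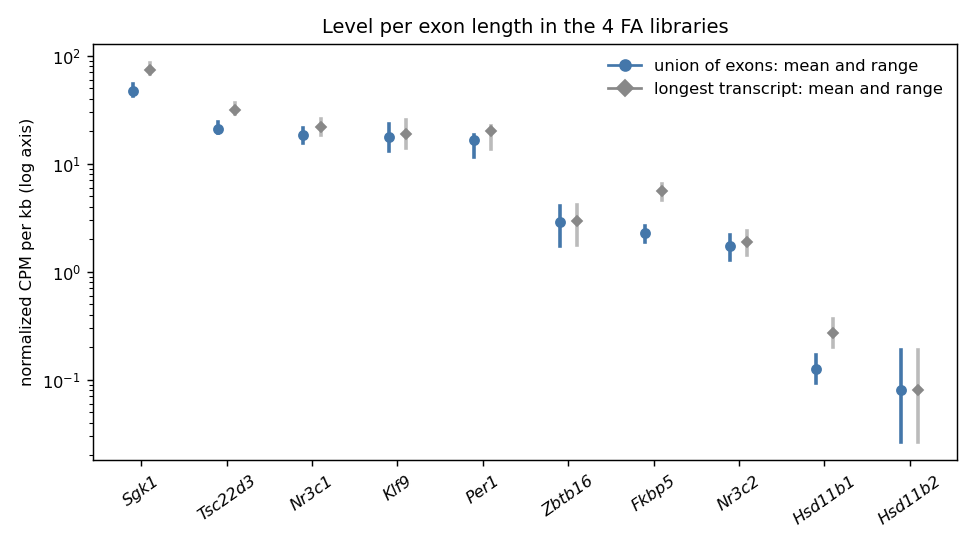
Level per kilobase of each gene in the 4 FA libraries (log axis, normalized CPM per kb). Circles are means over the union of exons and diamonds means over the longest transcript, with lines from the lowest to the highest library. Sgk1 stands at 46.6 and the circles of both Hsd11b enzymes stand below 0.2 CPM per kb, while the diamond of Hsd11b1 is at 0.268.

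Between DE and FA, the response genes Fkbp5, Zbtb16 and Per1 and the enzyme Hsd11b1 were higher in DE, while both receptors lay lower in DE without passing the test. Of the 9 tested genes, 4 were called, all of them higher in DE, and 5 were not, where a call needs an adjusted p of at most 0.05 and a difference of at least 25%. Over all 14966 tested genes, 5.80% were called and 3.58% were called higher in DE. For the same 4 called genes no DE library reached into the range of FA, against 14.7% of all tested genes. As the 10 genes were chosen with this comparison known, nothing is read from these shares. The median log2 fold change was 0.28 over the 9 genes and 0.00 over all tested genes. Without FA replicate 2 or without FA replicate 4, 2 of the 9 genes were called, and 0 were when the test itself asked for a difference beyond 25%, with adjusted p between 0.0640 and 0.0871 for the 4 genes.

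The glucocorticoid receptor itself, Nr3c1 (Entrez gene 14815), lay at 166, 119, 160.0 and 123 CPM in FA replicates 2, 3, 4 and 6, and at 110.3, 131, 85.3 and 82.5 CPM in DE replicates 1, 7, 3 and 5. The prefix 12 DE libraries were the lowest of the 8, and DE replicate 7 lay within the range of FA. Mean levels were 141.9 ± 24.3 in FA against 102.3 ± 23.0 CPM in DE (SD over 4 libraries), and the log2 fold change was -0.47 (SE 0.17, adjusted p = 0.110 by quasi-likelihood in edgeR). Nr3c2 (Entrez gene 110784, chromosome 8 from 76898083 to 77245012 of GRCm38.p6), which also binds aldosterone, lay at 14.2, 8.62, 13.2 and 8.36 CPM in FA replicates 2, 3, 4 and 6, and at 6.78, 9.11, 5.57 and 4.74 CPM in DE replicates 1, 7, 3 and 5. Here 3 DE libraries lay below every FA library and DE replicate 7 lay among them. Its log2 fold change was -0.78 (SE 0.23, adjusted p = 0.0697), which did not pass the threshold, though it did by DESeq2 (adjusted p = 0.0191), by edgeR's likelihood ratio test (adjusted p = 0.0216) and without DE replicate 7 (log2 fold change -0.98, adjusted p = 0.0406).

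Hsd11b1 (Entrez gene 15483, chromosome 1 from 193221640 to 193264045) was the enzyme that was called. Its counts were 27, 10, 9 and 8 in FA replicates 2, 3, 4 and 6, and 36, 25, 51 and 55 in DE replicates 1, 7, 3 and 5. In CPM these were 0.722, 0.498, 0.508 and 0.393 in FA and 1.09, 1.33, 1.46 and 1.37 in DE. Every DE library lay above every FA library, and the values of the DE libraries lay close to each other whatever their prefix. Its mean rose from 0.530 ± 0.138 to 1.31 ± 0.160 CPM, 2.38-fold higher in DE, with a log2 fold change of 1.25 (SE 0.24, adjusted p = 0.0160). The call was lost without FA replicate 4 (log2 fold change 1.22, adjusted p = 0.0622), without DE replicate 3 (1.19, adjusted p = 0.0552), with the prefix as a term (1.11, adjusted p = 0.0682) and over the prefix 11 libraries alone (1.10, adjusted p = 0.105), while the size of the difference stayed. Hsd11b1 is known from fibroblasts as well as from other cells, and the sums of the fibroblast markers were also higher in every DE library than in any FA library. Of the 8 markers, all with values above 0, 2 were called higher and none was at 0. Tcf21 (0.28, adjusted p = 0.219) and Pdgfra (0.47, adjusted p = 0.220) overlapped between the groups and were not called. The part of fibroblasts in the level of Hsd11b1 was not tested.

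The opposing enzyme, Hsd11b2 (Entrez gene 15484, chromosome 8 from 105518746 to 105523988), had counts of 5, 7, 1 and 1 in FA replicates 2, 3, 4 and 6 and of 4, 6, 7 and 1 in DE replicates 1, 7, 3 and 5. At 32 counts in 8 libraries, no difference was detectable at this depth. H6pd, which makes the cofactor that lets Hsd11b1 work in the reductive direction, had means of 28.9 ± 2.15 (FA) and 21.4 ± 8.50 CPM (DE) (log2 fold change -0.43, adjusted p = 0.236) and was not called with all 8 libraries. In DE it lay at 33.6 CPM in replicate 1 and between 14.7 and 20.7 CPM in the others, and without DE replicate 1 it was called lower (log2 fold change -0.73, adjusted p = 0.0141), as it was with the prefix 12 DE libraries alone (-0.63, adjusted p = 0.0110). The latter fit called 3240 genes in all.

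Among the response genes, Fkbp5 (Entrez gene 14229, chromosome 17 from 28398753 to 28486149) encodes a co-chaperone that lowers the affinity of the receptor for hormone and is itself induced by the receptor. It lay at 17.7, 25.3, 22.3 and 21.7 CPM in FA replicates 2, 3, 4 and 6, at 77.9 and 55.4 CPM in DE replicates 1 and 7, and at 35.5 and 31.6 CPM in DE replicates 3 and 5. All DE libraries lay above all FA libraries, and the prefix 11 DE libraries lay above the prefix 12 DE libraries. The means were 21.8 ± 3.10 CPM in FA and 50.1 ± 21.3 CPM in DE, and the fitted difference was 2.30-fold (log2 fold change 1.20, SE 0.25, adjusted p = 0.0231). The call was lost without FA replicate 2 (log2 fold change 1.11, adjusted p = 0.0832) and without FA replicate 4 (1.21, adjusted p = 0.0690).

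Zbtb16 (PLZF, Entrez gene 235320, chromosome 9 from 48651797 to 48836225), a transcription factor widely used as a marker of receptor activity, had the highest fold change of the 9 genes. It lay at 15.1, 15.1, 21.2 and 9.05 CPM in FA replicates 2, 3, 4 and 6, at 87.6 and 95.2 CPM in DE replicates 1 and 7, and at 28.4 and 27.9 CPM in DE replicates 3 and 5. The DE libraries fell into a high and a low pair by prefix, with the low pair still above all of FA. With means of 15.1 ± 4.97 CPM in FA and 59.8 ± 36.7 CPM in DE, its log2 fold change was 1.98 (SE 0.42, adjusted p = 0.0231). Without FA replicate 2 and without FA replicate 3 the fold change was unaltered at 1.98 but the adjusted p was 0.0759 and 0.0559.

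Per1 (Entrez gene 18626, chromosome 11 from 69095108 to 69109965) is a period gene of the circadian clock that receptor, clock and cAMP signals all induce. It lay at 102.9, 101.6, 103.8 and 64.5 CPM in FA replicates 2, 3, 4 and 6, and at 169, 183, 154 and 161 CPM in DE replicates 1, 7, 3 and 5. The DE libraries lay close together and well above FA, within which FA replicate 6 was low. The means were 93.2 ± 19.2 CPM in FA and 166.8 ± 12.6 CPM in DE, 1.79-fold higher in DE (log2 fold change 0.84, SE 0.15, adjusted p = 0.0103). The call held without any 1 library, with log2 fold changes from 0.70 to 0.89.

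Of the 15 clock genes listed, 1 (Per1) was called higher and 1, the activator Clock, lower (from 138.9 ± 27.4 to 81.2 ± 23.7 CPM, log2 fold change -0.78, adjusted p = 0.0476), with a median of 0.00. Over all tested genes, 5.80% were called. The call of Clock was lost without any of 5 libraries, FA replicates 2, 4 and 6 and DE replicates 3 and 5, at log2 fold changes from -0.82 to -0.65. It was also lost with the prefix as a term (-0.46, adjusted p = 0.170), over the prefix 11 libraries alone (-0.46, adjusted p = 0.216), with relative log expression factors (adjusted p = 0.0501), with library totals (-0.71, adjusted p = 0.0568) and with the 25% difference built in (adjusted p = 0.228). Per3 (-0.49, adjusted p = 0.0842) was not called, but it was by DESeq2 (adjusted p = 0.0420), by the likelihood ratio test (adjusted p = 0.0401) and without DE replicate 7 (-0.61, adjusted p = 0.0491). Ciart, a repressor within the clock, had a value of 0.53 (adjusted p = 0.128) and was called against the prefix 12 DE libraries alone (0.74, adjusted p = 0.0233). In that fit Per3 (-0.65, adjusted p = 0.0235) and Hlf (-0.54, adjusted p = 0.0215), which had a value of -0.23 over all libraries, were called lower. The same fit called 3240 genes in all, against 868 with every library in the fit. Nr1d2 (-0.25, adjusted p = 0.367) was not called. The hour at which hearts were taken is not given in the sources used here.

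Tsc22d3, Sgk1 and Klf9, which receptors induce in many cell types, were not called. Tsc22d3 (Entrez gene 14605, chromosome X from 140539528 to 140600522) lay at 83.7, 105.4, 88.5 and 87.5 CPM in FA replicates 2, 3, 4 and 6 and at 127.7, 116.8, 97.2 and 97.6 CPM in DE replicates 1, 7, 3 and 5. The prefix 11 DE libraries were above all of FA and the prefix 12 DE libraries within it, for a log2 fold change of 0.27 (SE 0.12, adjusted p = 0.188). Sgk1 (Entrez gene 20393, chromosome 10 from 21882184 to 21999903), the gene with the palindrome in its window, lay at 216, 209, 224 and 266 CPM in FA replicates 2, 3, 4 and 6 and at 225, 267, 357 and 258 CPM in DE replicates 1, 7, 3 and 5. Of these, DE replicate 3 was the highest and the others spanned about the range of FA, for a log2 fold change of 0.28 (SE 0.14, adjusted p = 0.244). Klf9 (Entrez gene 16601, chromosome 19 from 23141226 to 23168129) lay at 112.9, 70.4, 94.8 and 63.1 CPM in FA and at 113.6, 85.7, 63.2 and 55.9 CPM in DE, in the same order of replicates. The range of FA lay within that of DE, with a log2 fold change of -0.10 (adjusted p = 0.811) and an interval (95%) from -0.61 to 0.41. Its direction turned to 0.22 with the prefix as a term or over the prefix 11 libraries alone.

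**Figure D2:**
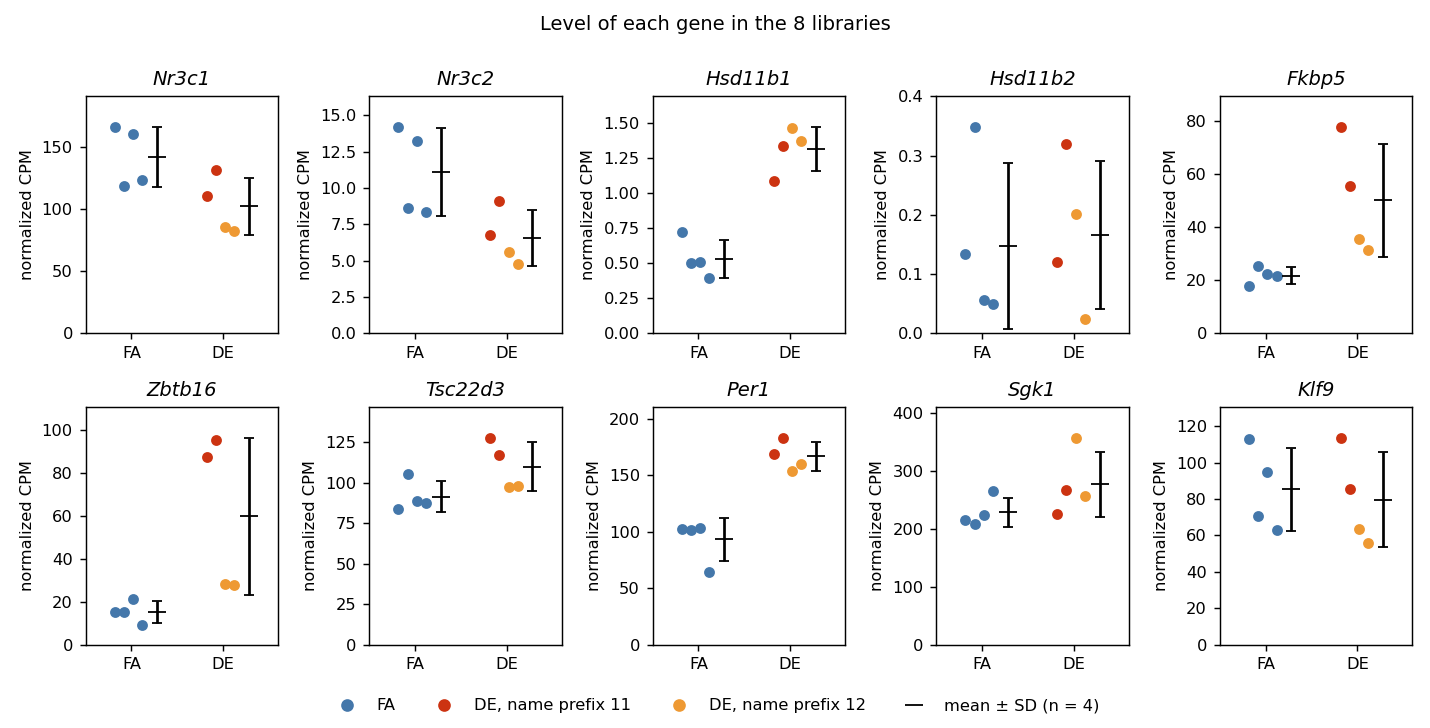
Normalized CPM (counts scaled to a common library size by TMM factors) of the 10 genes in each library, FA on the left and DE on the right of each panel, with black bars for the mean ± SD of 4 libraries. Fkbp5 and Zbtb16 are split within DE, where the prefix 11 libraries (red) lie above the prefix 12 libraries (orange), while in Per1 and Hsd11b1 the 4 DE libraries lie closer together. Each of these genes is higher in every DE library than in any FA library.

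The DE libraries were next compared with each other by prefix, a contrast other than the one in which the 10 genes had been seen to differ. Fkbp5 and Zbtb16 were lower in the prefix 12 DE libraries than in the prefix 11 DE libraries, and the other 7 tested genes were not called, though Klf9 was without the filter on low counts (-0.72, adjusted p = 0.0261). Zbtb16 had means of 28.1 CPM in prefix 12 and 91.4 CPM in prefix 11, or -1.70 on the log2 scale (SE 0.26, adjusted p = 0.0332). For Fkbp5 the means were 33.5 and 66.6 CPM, or -0.99 on the log2 scale (SE 0.19, adjusted p = 0.0357). Over all tested genes, 2.06% were called in this contrast and 1.54% were called lower in prefix 12. The values of these DE libraries were also known when the genes were chosen, so nothing is read from 2 of 9 against those shares. With library totals alone, Fkbp5 was not called. The comparison has 2 libraries on each side, and without 1 of them an arm holds a lone library, whose spread is taken to be that of the other groups, mainly FA. In those fits neither gene was called, as was so for nearly all genes, while the difference of Zbtb16 stayed between -1.76 and -1.63 and that of Fkbp5 between -1.21 and -0.73.

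The log2 fold changes of the other genes by prefix ran from -0.74 for Klf9 (adjusted p = 0.107) to 0.32 for Sgk1 (adjusted p = 0.289). Nr3c1 (-0.52), Nr3c2 (-0.61) and Tsc22d3 (-0.33) also had negative values, but none of them passed. Per1 and Hsd11b1 differed least, at -0.16 with an interval (95%) from -0.59 to 0.27 and at 0.25 with an interval from -0.39 to 0.88. The fibroblast sums of the prefix 12 DE libraries reached into the range of the prefix 11 DE libraries, and their part in the split of Fkbp5 and Zbtb16 was not tested.

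Set against the same 4 FA libraries, which both comparisons share, the DE pairs gave different values for the members. In the prefix 11 DE libraries, 3 of the 9 genes were called, with 2.99% of all genes called. These were Zbtb16 (log2 fold change 2.60), Fkbp5 (1.62) and Per1 (0.92). In the prefix 12 DE libraries, 6 of the 9 were called, where the background was much higher at 23.4% of all genes. Of these, Hsd11b1 (1.35), Zbtb16 (0.90), Per1 (0.76) and Fkbp5 (0.63) were higher than in FA, while Nr3c1 (-0.76, adjusted p = 0.00732) and Nr3c2 (-1.12, adjusted p = 0.00843) were lower. In the prefix 11 DE libraries the receptors had values of -0.23 and -0.50 and were not called, and the difference between the pairs did not pass the test for either receptor (adjusted p = 0.115 and 0.202). Fkbp5, Zbtb16 and Per1 were called higher than in FA in each DE pair.

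**Figure D3:**
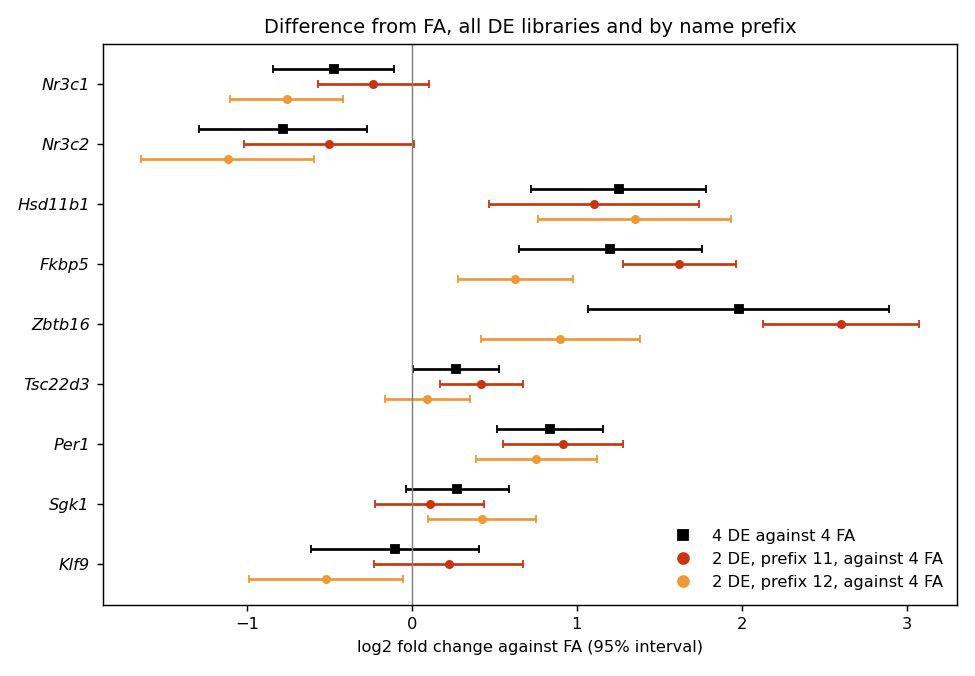
Log2 fold change against the 4 FA libraries (horizontal axis, bars are 95% intervals) for all 4 DE libraries (black squares), the 2 prefix 11 DE libraries (red) and the 2 prefix 12 DE libraries (orange). Zbtb16 is at 2.60 in prefix 11 and 0.90 in prefix 12, and the receptors Nr3c1 and Nr3c2 lie left of 0 in all 3 fits.

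The genes whose pattern over the 8 libraries was most like that of Fkbp5 were found by the root mean square difference of their centred log2 values, among the 13128 genes that averaged 1 CPM or more. They were Arrdc2 (0.207), Slc10a6 (0.222), Agap2 (0.230), Proser2 (0.260) and Scd1 (0.269), where the median over all these genes was 0.698. For Zbtb16 they were Slc10a6 (0.544), Fkbp5 (0.551), Arrdc2 (0.616), Scd1 (0.637) and Pak3 (0.655), with a median of 1.13. Arrdc2, Slc10a6 and Scd1 stand in both lists. Slc10a6, a carrier of sulphated steroids, had means of 2.63 CPM in FA, 11.2 CPM in prefix 11 DE and 3.90 CPM in prefix 12 DE. Arrdc2, an arrestin-domain protein, had means of 3.87, 9.84 and 6.25 CPM in the same order. All of these genes come from the same 8 libraries and share their scaling, and the likeness is a description.

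A wider list of 40 further genes that glucocorticoids are known to alter, written from general knowledge, was read from the same fit. Of the 36 that were tested, 7 were called higher and 2 lower in DE and 27 were not called, with a median log2 fold change of 0.21 against 0.00 over all tested genes. Over all tested genes, 5.80% were called and 3.58% called higher. DE and FA ranges stood apart for 12 of the 36, against 14.7% of all tested genes. Tat and Pck1, the classical liver targets, and Cd163 and Lcn2 had too few counts to be tested. The list was also chosen with earlier results known, so nothing is read from these shares.

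Fam107a, an actin-binding stress-response gene, had the highest fold change of the list. It lay at 0.695, 0.847, 0.226 and 0.787 CPM in FA replicates 2, 3, 4 and 6 and at 6.08, 4.32, 4.53 and 2.37 CPM in DE replicates 1, 7, 3 and 5. Every DE library was above every FA library, with a log2 fold change of 2.72 (SE 0.36, adjusted p = 0.00251). As FA replicate 4 lay below the level of the filter (0.378 CPM), the gene entered the test through the DE libraries, where it was high. The decoy interleukin-1 receptor Il1r2 was called at 1.52, and it too entered through DE, since FA replicates 2 and 4 lay below that level, at 0.241 and 0.282 CPM. The others called higher were Arrdc2 at 1.06, the stress kinase Map3k6 at 0.88, the cell cycle inhibitor Cdkn1c (p57) at 0.85, the transcription factor Cebpd at 0.74 and the anti-inflammatory protein Anxa1 (annexin A1) at 0.71 on the log2 scale. Without FA replicate 2 the count of called genes fell from 9 to 5, with Cebpd, Anxa1, Arrdc2 and Il1r2 no longer called. Il1r2 was also lost without FA replicate 4 (1.46), Anxa1 without FA replicates 3 or 4 or DE replicate 3 (0.63 to 0.69), and Cebpd without any of these or DE replicate 1 (0.57 to 0.71). Over the prefix 11 libraries alone, these 3 genes were not called. With the prefix as a term, Anxa1 (adjusted p = 0.0611) and Cebpd (adjusted p = 0.0573) were not called, and Cebpd was not called by limma-voom (adjusted p = 0.0561).

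The 2 called lower are both fuel genes that the nuclear receptor PPAR alpha also drives, and the part of either receptor in their levels was not tested. Pdk4, which blocks the entry of pyruvate into the mitochondrial cycle, fell from 366.7 ± 40.6 CPM to 131.3 ± 33.8 CPM (log2 fold change -1.48, adjusted p = 0.000817). Angptl4, an inhibitor of lipoprotein lipase, fell from 24.1 ± 3.64 CPM to 5.73 ± 1.71 CPM (log2 fold change -2.06, adjusted p = 0.000328). Other classical targets were not called, among them Dusp1 (0.07, adjusted p = 0.794), Nfkbia (0.38, adjusted p = 0.0886), Mt1 (0.39, adjusted p = 0.141) and Mt2 (0.40, adjusted p = 0.113). Lower in DE but also not called were, among others, Lpin1 (-0.45, adjusted p = 0.0594) and Trim63 (-0.35, adjusted p = 0.101). The groups did not overlap for Nfkbia, Lpin1 and Trim63. Of the 36 tested genes of the list, 24 had values above 0 and 12 below. Crispld2 had a log2 fold change of 0.85 but overlapping groups (adjusted p = 0.120). It was called by DESeq2 (adjusted p = 0.0494), and without DE replicate 1 its value was 0.47 (adjusted p = 0.225).

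**Figure D4:**
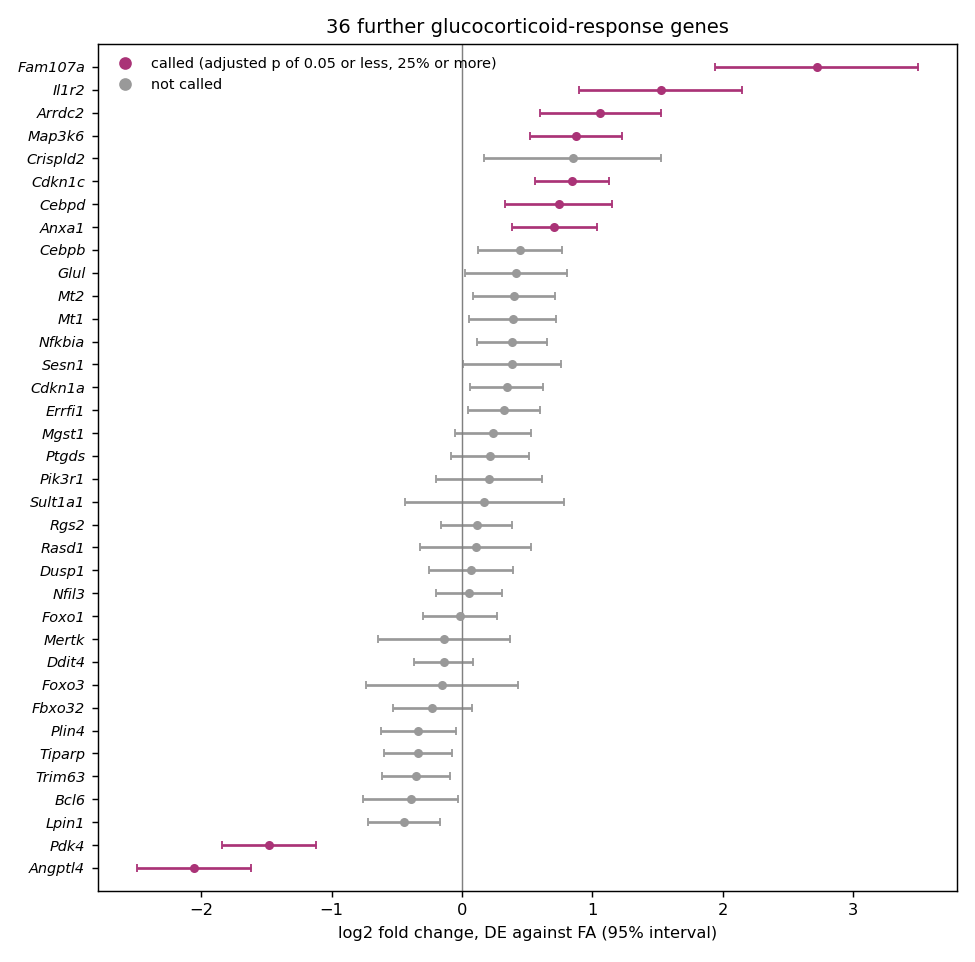
Log2 fold change of DE against FA with 95% intervals for the 36 tested genes of the wider list, ordered by value. The 9 called genes (purple) run from Fam107a at 2.72 to Anxa1 at 0.71 on the right, with Pdk4 at -1.48 and Angptl4 at -2.06 on the left.

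The proteins that hold, carry or assist the receptor were listed separately. Of 30 chaperones and coregulators, all tested, 0 were called by edgeR's quasi-likelihood test, with 4 at an unadjusted p under 0.05, 2 called by DESeq2 and 1 by the likelihood ratio test, and a median log2 fold change of -0.08. Over all 14966 tested genes, 5.80% were called and 3828 were at an unadjusted p under 0.05. Ipo13, an importin that carries the receptor into the nucleus, came nearest, with means of 44.9 ± 2.68 (FA) and 35.2 ± 3.48 CPM (DE) without overlap of the groups (log2 fold change -0.35, adjusted p = 0.0639). It was called by DESeq2 (adjusted p = 0.0217), by the likelihood ratio test (adjusted p = 0.0378) and with the prefix as a term (-0.47, adjusted p = 0.0421). Nrip1 (-0.74), Ep300 (-0.48) and Crebbp (-0.36) were not called, and their levels in DE went with the prefix. Nrip1, a corepressor, lay between 15.1 and 36.7 CPM in FA, at 24.6 and 25.4 CPM in prefix 11 DE and at 8.40 and 7.23 CPM in prefix 12 DE. Ep300 had means of 135.4 CPM in FA, 118.7 CPM in prefix 11 DE and 76.2 CPM in prefix 12 DE. Its fellow acetyltransferase Crebbp had means of 95.9, 97.0 and 52.5 CPM in the same order. A split was also present within FA, where every library has prefix 11. There replicates 2 and 4 lay above replicates 3 and 6 for each of the 3 genes (for Ep300, 168 and 161 against 115 and 97.1 CPM). Against the prefix 12 DE libraries alone these 3 genes were called lower (-1.80, -0.83 and -0.87). That fit called 7 of the 30 listed genes and 3240 genes in all, so nothing is read from these calls. Without 1 library, the values of Nrip1 ran from -1.02 (without DE replicate 1 or 7) to -0.48 (without DE replicate 5). Those of Crebbp ran from -0.53 (without FA replicate 6 or DE replicate 7) to -0.18 (without FA replicate 2).

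Of 22 genes for the response to aldosterone and the handling of steroids, 13 were tested and 1 was called, Hsd11b1 itself, with a median of 0.08, where 5.80% of all tested genes were called. The subunits of the aldosterone-sensitive sodium channel Scnn1b and Scnn1g had 13 and 1 counts in all. The adrenal enzymes Cyp11b1 and Cyp11b2 that finish corticosterone and aldosterone were at 0 in all libraries. Edn1, the peptide endothelin-1, was not called (0.45, adjusted p = 0.119), but it was without DE replicate 1 (0.57, adjusted p = 0.0443) and against the prefix 12 DE libraries alone (0.72, adjusted p = 0.00542), in a fit that called 3240 genes in all. The drug and steroid pumps Abcb1b (0.63, adjusted p = 0.144) and Abcb1a (0.27, adjusted p = 0.439) were not called, and without 1 library their values ran from 0.41 (without DE replicate 1) to 0.80 (without FA replicate 6) and from 0.15 (without DE replicate 1 or FA replicate 3) to 0.43 (without DE replicate 5).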

How the data were processed

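RNA was measured by RNA-seq in 8 libraries of male NCMs, 4 FA and 4 DE by their labels (the methods give 3 hearts per group without naming them, so all 8 were used). The authors selected poly-A RNA, made stranded libraries, aligned reads to mm10 with TopHat, and counted fragments with featureCounts, and they deposited raw counts per Entrez gene, with no normalization. Whether strand was used, and how reads that map to several places were counted, is not given in the sources used here. Symbols and positions came from RefSeq on GRCm38.p6, where 25275 of 27179 Entrez genes had a symbol. Exon and transcript lengths came from GENCODE gene models, paired through their Entrez identifiers.

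After filterByExpr (count minimum 10) and TMM scaling, 14966 genes were fitted by glmQLFit and glmQLFTest of edgeR 4.0.16 under R 4.3.3. The model held the exposure alone, and p-values were adjusted by Benjamini-Hochberg across every gene fitted. Called genes had an adjusted p of at most 0.05 and a difference of at least 25%. The biological coefficient of variation was 15.95%. A second model of the same 8 libraries held 3 groups, FA and the DE libraries of either prefix. Likeness used log2 of CPM plus 0.5. Precision from counts covers counting error only.

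The members and lists were chosen with earlier results of these data known. The genes named are the 10 members and, of each other list, up to 6 called genes by smallest adjusted p and up to 4 more by size of change, at a mean of at least 1 CPM, as well as the 5 genes most like Fkbp5 and Zbtb16. Dusp1, Nfkbia, Mt1, Mt2, Lpin1, Trim63, the marker genes given by name and the genes listed as not tested or at 0 were named after their values were seen. The results were recomputed with DESeq2 1.42.0, limma-voom (limma 3.58.1) and the likelihood ratio test of edgeR, with the threshold on p alone or with the 25% difference built in, with other scaling (relative log expression, upper quartile, totals), without a filter or at a mean of at least 1 CPM, with the prefix as a covariate or prefix 12 left out, and without each library. The fit of FA against the prefix 12 DE libraries alone was added after seeing the data. The code was checked on simulated data.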

Additional observations from a re-analysis of the deposited data

Results flagged for a closer look

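Per1 was low in 1 library of its group. In FA, replicate 6 was at 64.5 CPM while the other FA libraries lay between 101.6 and 103.8 CPM, a gap that was large for a group of 4. H6pd was low in the same library, at 25.7 CPM against 29.8 to 30.3 CPM in the other FA libraries. In all, 74 groups of 4 values from 37 genes were looked at and 2 were this uneven, where chance gives about 1 in 20, or 3.7. Without FA replicate 6, Per1 was still called, and 4 members were called, as with it.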

How the results depend on the processing

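The 868 genes called between DE and FA became 1633 with DESeq2, 1603 with the likelihood ratio test, 114 with the 25% difference built into the test, 448 with the prefix as a term, 260 over prefix 11 only and 3240 with FA against DE prefix 12 only. Of the 9 tested members, 4 called became 0 with the 25% difference built in, where the adjusted p of Per1, Hsd11b1, Zbtb16 and Fkbp5 was 0.0649, 0.0640, 0.0683 and 0.0871. The 9 called genes of the wider response list became 4 with the 25% difference built in and 17 with DE prefix 12 only. The 0 called chaperones and coregulators became 2 with DESeq2, 1 with the likelihood ratio test, with library totals and with the prefix as a term, and 7 with DE prefix 12 only. The 1 called steroid-handling gene became 0 with the 25% difference built in, at a mean of at least 1 CPM, with the prefix as a term and over prefix 11 only, and 3 with DE prefix 12 only. Between the DE prefixes, 309 called genes became 985 with DESeq2, 26 with library totals and 1119 without the filter, and the 2 called members became 1 with library totals and 3 without the filter, where Klf9 was gained. Leaving out 1 library at a time, the counts ran from 237 (without FA replicate 4) to 1168 (without DE replicate 1) for all genes and from 2 (without FA replicate 2 or 4) to 5 (without DE replicate 7) for the members. They ran from 5 (without FA replicate 2) to 11 (without DE replicate 1) for the wider list, from 0 to 1 for the chaperones, from 0 (without FA replicate 4 or DE replicate 3) to 3 (without DE replicate 1) for the steroid-handling genes, and between the prefixes from 0 to 17 for all genes and 0 to 0 for the members.

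Klf9 turned from -0.10 to 0.22 with the prefix as a term and over prefix 11 only, to 0.06 without FA replicate 2 and to 0.04 without DE replicate 5, with -0.33 (without DE replicate 1) the lowest value when a library was left out. With the prefix as a term and over prefix 11 only, Crebbp turned to 0.01, Hlf to 0.03 and Nr4a1 to -0.10. None of these 4 was called in any of those fits. The log2 fold changes of the called members kept their sign in every alternative, from 0.62 to 1.62 for Fkbp5, 0.90 to 2.60 for Zbtb16, 1.10 to 1.49 for Hsd11b1 and 0.70 to 0.92 for Per1. The cause of these shifts was not tested. Hsd11b1 was not tested at a mean of at least 1 CPM. Library totals alone moved the median of all genes to 0.08. No paired analysis was possible because the groups share only replicate number 3.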

Other observations

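Immediate early genes, which respond within minutes to stress and to the handling of cells, were looked at beside the glucocorticoid genes. Of 15 such genes, all tested, 0 were called by edgeR's quasi-likelihood test (1 at an unadjusted p under 0.05), with a median log2 fold change of 0.10. Over all 14966 tested genes, 5.80% were called and 3828 were at an unadjusted p under 0.05. Their summed level lay between 1770 and 2251 CPM in FA and between 1665 and 2393 CPM in DE. Ier2 (0.41), Junb (0.32), Ier3 (-0.31) and Nr4a1 (0.19) were furthest from 0 among those averaging 1 CPM or more, and all of their groups overlapped. Against the prefix 12 DE libraries alone, Ier2 (0.57, adjusted p = 0.0254) and Nr4a1 (0.42, adjusted p = 0.0297) were called, in a fit that called 3240 genes in all, against 868 with every library.

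RNA of other cells was read from marker sums. Endothelial markers summed to 1184 to 1616 CPM in FA and 1352 to 1962 CPM in DE, smooth muscle and pericyte markers to 156.2 to 227.7 and 164.4 to 261.9 CPM, leukocyte markers to 12.5 to 18.7 and 16.2 to 26.9 CPM, and mesothelial markers to 97.8 to 126.7 and 92.2 to 130.9 CPM, and 0 of these markers were called. Erythroid markers summed to 759.2 to 1880 CPM in FA and 1209 to 2022 CPM in DE, with 1 of the 6 tested called higher. Adrenal and liver markers, from organs that make or clear corticosterone, summed to 7.32 to 8.45 CPM in FA and 8.10 to 9.38 CPM in DE, and Cyp11b1 was at 0 in all libraries. Of the cardiomyocyte markers 2 were called lower. The part of these cells in the levels of the glucocorticoid genes was not tested.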
